A study of Mus musculus with 3 samples.

Results

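The 9 genes described here belong to the JAK-STAT pathway and were followed in the Ser5-phosphorylated Pol_II profiles of mouse macrophages: 6 STAT genes (Stat2, Stat3, Stat4, Stat5a, Stat5b and Stat6) and 3 JAK genes (Jak1, Jak2 and Jak3). They were chosen by symbol, as 9 of the 22350 protein-coding genes that GENCODE M1 places on chromosomes 1 to 19 and X of mm9. The cells were bone marrow-derived macrophages of female Fvb mice on day 7 of culture, grown with L929-conditioned medium. The 3 libraries were Ser5 ChIP from untreated cells, Ser5 ChIP from cells that had received LPS at 10 ng/ml for 2 h (a bacterial lipopolysaccharide that activates macrophages), and input DNA, chromatin that was not immunoprecipitated, from untreated cells. The antibody recognizes Pol_II phosphorylated at serine 5 of its carboxy-terminal repeats. No input of LPS-treated cells was used here, and neither the age of the mice nor the number pooled is given in the labels.

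JAKs are tyrosine kinases bound to the inner side of cytokine receptors, and STATs are the transcription factors that they phosphorylate and that then enter the nucleus. Different receptors use different pairs: interferon receptors signal through JAK1 with other kinases of the family, the GM-CSF receptor through JAK2 and STAT5, and the IL-4 receptor through STAT6. In macrophages LPS induces interferons and other cytokines, which act back on these receptors, and the pathway is held in check by inhibitors of the SOCS family that it switches on.

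The libraries held 7616771 tags (untreated Ser5), 6249819 tags (Ser5 after LPS) and 7533308 tags (input) on chromosomes 1 to 19 and X. Levels are given as TPM, the tags of a region per 1000000 tags of the library, and as TPM per kb where regions or genes of different length are set side by side. Each condition was a single library, so no test was made, and every interval is a 95% interval that covers counting error only and no spread between cultures. The tags were 45 bases long in the untreated library, 30 bases in the LPS library and 36 bases in the input, while the study's supplementary methods assign the lengths of the Ser5 libraries the other way round. The genes used to check the labels were nevertheless higher in the library labelled LPS: Tnf (82.0 TPM per kb untreated and 788 after LPS, a ratio of 9.62), Il1b (a ratio of 44.5) and Nfkbia (a ratio of 6.17). The labels give LPS alone as the treatment, whereas a panel of the study names the same data as LPS with γIFN, an activator of the pathway described here. Effects of LPS and of any γIFN cannot be told apart in these libraries. All 7 macrophage markers were above input in untreated cells, from Itgam (2.67 times input) to Lyz2 (116 times). After LPS 4 of them were lower (Itgam with a ratio of 0.229, Cd68 0.263, Lyz2 0.405 and Csf1r 0.449) and 3 higher (Spi1 1.44, Emr1 3.01 and Cd14 3.18), and Itgam was then at 0.613 times input (0.510 to 0.735). Of the 12 genes that mark T cells, B cells, granulocyte precursors, dendritic cells, fibroblasts or erythroid cells, Cd3d (136 tags untreated, 76 after LPS and 35 in input) and Cd79a (34, 27 and 20 tags) were above input and the other 10 below it. Of these, Hbb-b1 had 0 tags in both Ser5 libraries but only 1 in input, too few to place it. Comparisons with input depend on the scaling: relative to the tags outside peaks, of which the input holds far more, the same Ser5 levels stand higher against input, and then 6 of those 12 genes, Hbb-b1 included, were below input in both libraries and Itgam after LPS was at 1.26 times input (1.05 to 1.51). A change in Pol_II per cell and a change in the share of cells carrying it cannot be told apart in such bulk material.

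Over the whole gene, 2 of the 9 genes were at least 2-fold higher after LPS, against 5.83% of the 17386 coding genes with at least 10 Ser5 tags. These were Jak2 and Stat2. Stat6 was the 1 gene that was at least 2-fold lower, against 11.3% of those genes. The ratio of the LPS to the untreated library had a median of 1.07 over the 9 genes and of 0.874 over all 17386, with quartiles of 0.665 and 1.14. The median of the 9 is the ratio of Stat4, which was not above input (168 and 147 Ser5 tags against 613). The interval of the ratio lay above 1 in 4 genes (Jak2, Stat2, Stat3 and Jak1) and below 1 in 4 (Stat6, Stat5a, Jak3 and Stat5b), and it held 1 for Stat4. In the start window, 1 kb on each side of the transcription start site (TSS), 1 gene (Jak2) was at least 2-fold higher and 0 were at least 2-fold lower, against 5.76% and 14.1% of the 12596 genes with enough tags there.

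**Figure D1:**
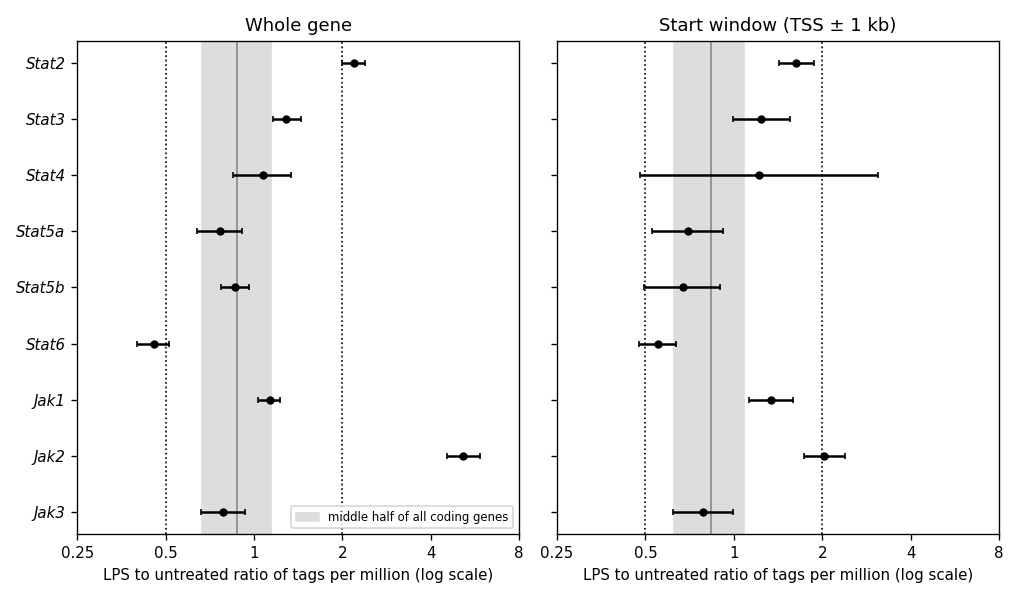
The LPS to untreated ratio of TPM is plotted on a log axis for each gene, over the whole gene (left) and in the start window (right), with bars for the 95% counting interval, dotted lines at 0.5 and 2, and a grey band from the first to the last quartile of all coding genes with a line at their median. Jak2 (5.16) and Stat2 (2.19) lie above 2 and Stat6 (0.455) below 0.5 over the whole gene, and in the start window Jak2 alone reaches 2 (2.03).

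At their start windows the genes differed widely in level. In untreated cells Stat6 was densest (39.0 TPM per kb), followed by Stat2 (25.5), with intervals that did not overlap. Jak1 (16.6) and Jak2 (16.1) came next with overlapping intervals, and then Jak3 (12.3), Stat3 (10.6), Stat5a (9.64) and Stat5b (8.60), each overlapping its neighbour in this order. Stat4 was lowest by far, at 0.722. After LPS the order was Stat2 (41.7), Jak2 (32.6), Jak1 (22.2), Stat6 (21.5), Stat3 (13.1), Jak3 (9.68), Stat5a (6.72), Stat5b (5.76) and Stat4 (0.880). Stat6 thus passed from the top of the list to a level that overlapped that of Jak1, and Jak2 passed above both. Input ranged only from 0.796 (Jak3) to 1.79 TPM per kb (Stat6) in the same windows, so that 8 of the 9 genes were above input in both Ser5 libraries, and Stat4 was below it in both. Scaled to the tags outside peaks, the Stat4 start stood at 0.946 times input untreated and 1.24 times after LPS, with intervals that also held 1.

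**Figure D2:**
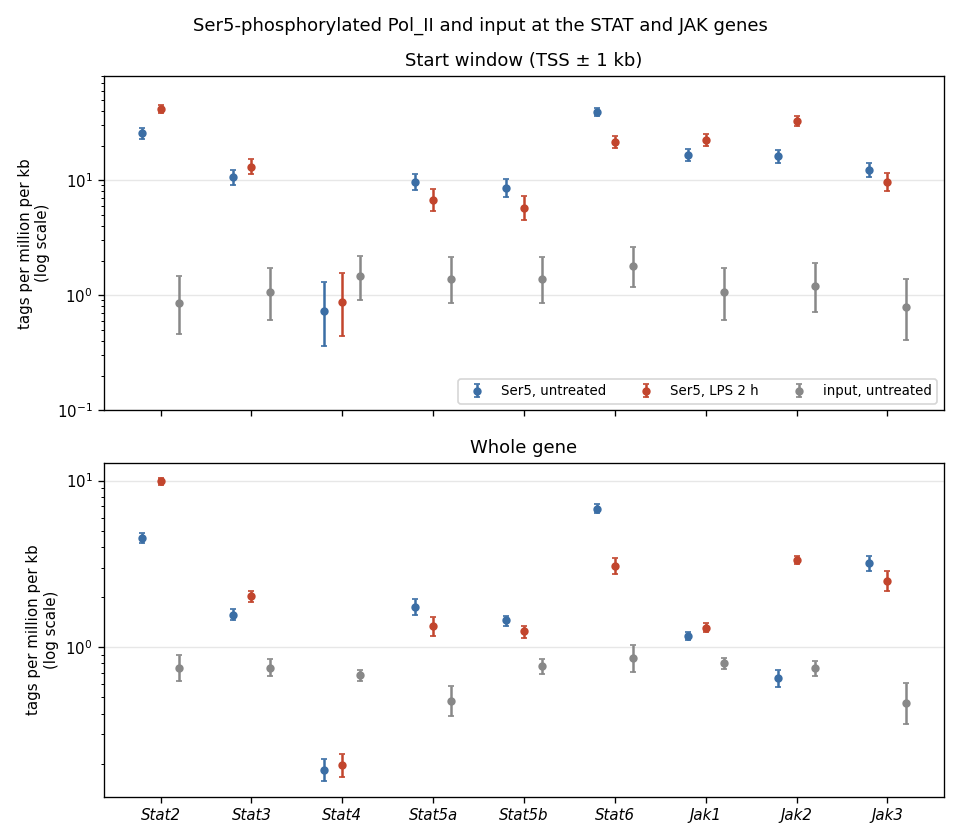
TPM per kb on a log axis in untreated Ser5 (blue), Ser5 after LPS (red) and input (grey) are plotted for the start window (top) and the whole gene (bottom), with 95% Poisson intervals. Stat4 lies below its input in both panels, with overlapping intervals in the start window. Untreated Jak2 lies above input at its start (16.1 against 1.19) but not over the whole gene (0.652 against 0.748).

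The deposited peak lists gave the same division. A Ser5 peak overlapped the start window of 8 of the 9 genes in untreated cells and of the same 8 after LPS, against 47.9% and 45.8% of all coding genes (44.8% in both), and Stat4 had no peak anywhere. In total 59 distinct peaks lay over or within 1 kb of the genes in the untreated list and 86 in the LPS list, of which 4 and 3 belonged to both Stat3 and Stat5a. Jak2 had 1 of the untreated peaks and 31 of the LPS peaks, so that without it the number was 58 and 55.

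Jak2 encodes the kinase of the receptors for GM-CSF, IL-3, erythropoietin and γIFN. Its record (ENSMUSG00000024789.6) covers 61.3 kb on the plus strand at chr19:29326318-29387570 (mm9), with a single annotated TSS and 25 exons in the transcript used. The bases from 250 before to 50 after its TSS, chr19:29326068-29326367 on the plus strand, are shown because a Ser5 peak covered this site in both libraries while the gene behind it differed most between them. The capital marks the first base of the transcript.
Jak2 promoter: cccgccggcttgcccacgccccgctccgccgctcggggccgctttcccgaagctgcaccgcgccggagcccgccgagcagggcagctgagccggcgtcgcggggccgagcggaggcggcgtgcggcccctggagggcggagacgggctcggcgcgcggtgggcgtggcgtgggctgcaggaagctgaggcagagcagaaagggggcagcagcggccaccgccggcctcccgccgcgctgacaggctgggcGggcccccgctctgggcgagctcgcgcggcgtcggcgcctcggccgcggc
This stretch was 81.3% G and C, above 99.1% of the 22345 coding promoters of the same length, whose median was 55.7%. It held no match to any of the 6 motifs searched.

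Over the whole Jak2 gene there were 304 tags in the untreated library (0.652 TPM per kb), 1288 after LPS (3.36 TPM per kb) and 345 in the input (0.748 TPM per kb). The untreated library was thus at the level of input (0.872 times input, 0.745 to 1.02) and the LPS library above it (4.50 times, 3.99 to 5.08). Scaled to the tags outside peaks these values were 1.67 and 9.27. Jak2 had an LPS to untreated ratio of 5.16 (4.55 to 5.87), higher than in 99.1% of coding genes. The tags were not spread alike in the 2 conditions. Before LPS the start window held 245 tags and was 13.5 times above input, while the rest of the gene, past its first kb, held 242 tags over 60.3 kb and was at 0.710 times input (0.600 to 0.840), or at 1.36 times (1.15 to 1.61) when scaled to the tags outside peaks. After LPS the start window held 408 tags (a ratio of 2.03, 1.73 to 2.39) and the rest 1131 (a ratio of 5.70, 4.95 to 6.57). Within the start window the kb before the TSS had a ratio of 1.67 (183 tags against 251) and the kb after it 3.07 (62 against 156). Along the rest of the gene the ratio was nearly even, at 5.62, 5.94, 5.45 and 5.96 in 4 successive stretches of equal length, and in the 5 kb past the 3′ end it was 3.92 (46 tags against 148).

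The density in the start window was accordingly 30.5 times that in the rest of the gene before LPS (25.4 to 36.6) and 10.9 times after it (9.68 to 12.2). Among the 9127 coding genes of at least 5 kb with enough tags in both regions, the median of this start-to-rest ratio was 11.7 untreated and 10.9 after LPS, so that Jak2 was above 87.9% of genes before LPS and at the middle of them after it. The change in its start-to-rest ratio, to 0.356 of the untreated value, was larger in the downward direction than in all but 1.40% of those genes.

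**Figure D3:**
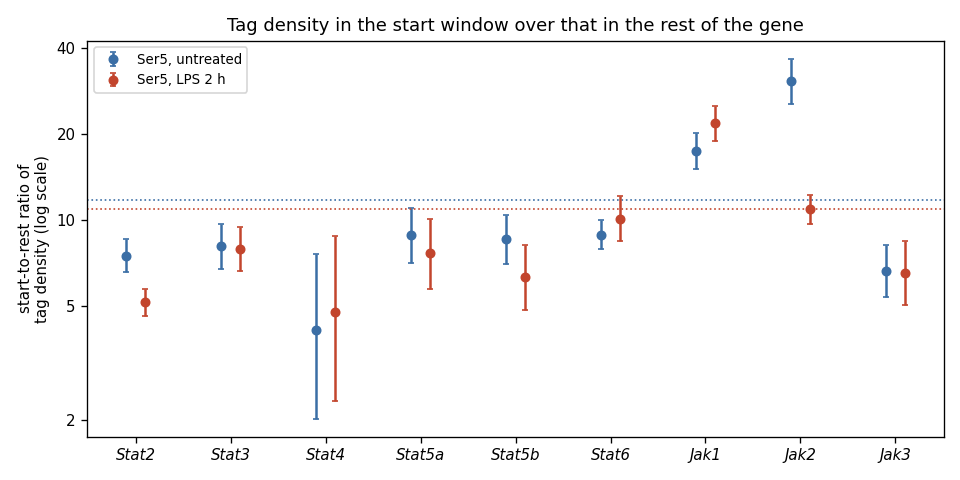
The tag density in the start window divided by that in the rest of the gene is plotted on a log axis for each gene in untreated cells (blue) and after LPS (red), with 95% counting intervals and dotted lines at the medians of all coding genes of at least 5 kb (11.7 and 10.9). Jak2 moves from 30.5 to 10.9, Stat2 from 7.49 to 5.14, and the intervals of the 2 libraries overlap for the other genes.

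The peaks show the same spread. The single untreated peak at Jak2, chr19:29325403-29326608, covered the TSS and 0.475% of the gene, whereas the 31 peaks of the LPS library covered 22.1% of it, up to a peak at chr19:29386142-29386588 near the 3′ end, where there was 1 tag in the untreated library and 15 after LPS. Upstream of the gene the LPS library had 2 peaks, 1.73 and 10.1 kb from it, that the untreated list lacked. The nearer, chr19:29324358-29324826, held 3 tags untreated, 19 after LPS and 0 in input (a ratio of 7.72, 2.27 to 40.7), and the next coding TSS was that of Insl6, 75.3 kb away. The 300 bases about its midpoint, chr19:29324442-29324741 on the plus strand, are shown because they hold a match, in capitals, to TTC and GAA set 4 bases apart, a spacing of the STAT palindrome.
Jak2 upstream LPS peak: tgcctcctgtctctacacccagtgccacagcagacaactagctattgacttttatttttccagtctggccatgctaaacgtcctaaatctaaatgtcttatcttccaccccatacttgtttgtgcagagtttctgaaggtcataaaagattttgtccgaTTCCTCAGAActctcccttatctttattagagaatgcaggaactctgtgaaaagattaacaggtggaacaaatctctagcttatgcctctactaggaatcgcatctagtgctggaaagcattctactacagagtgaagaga
Such a match was found in 6.89% of the 49368 LPS peaks read in the same way, and it describes the letters only.

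**Figure D4:**
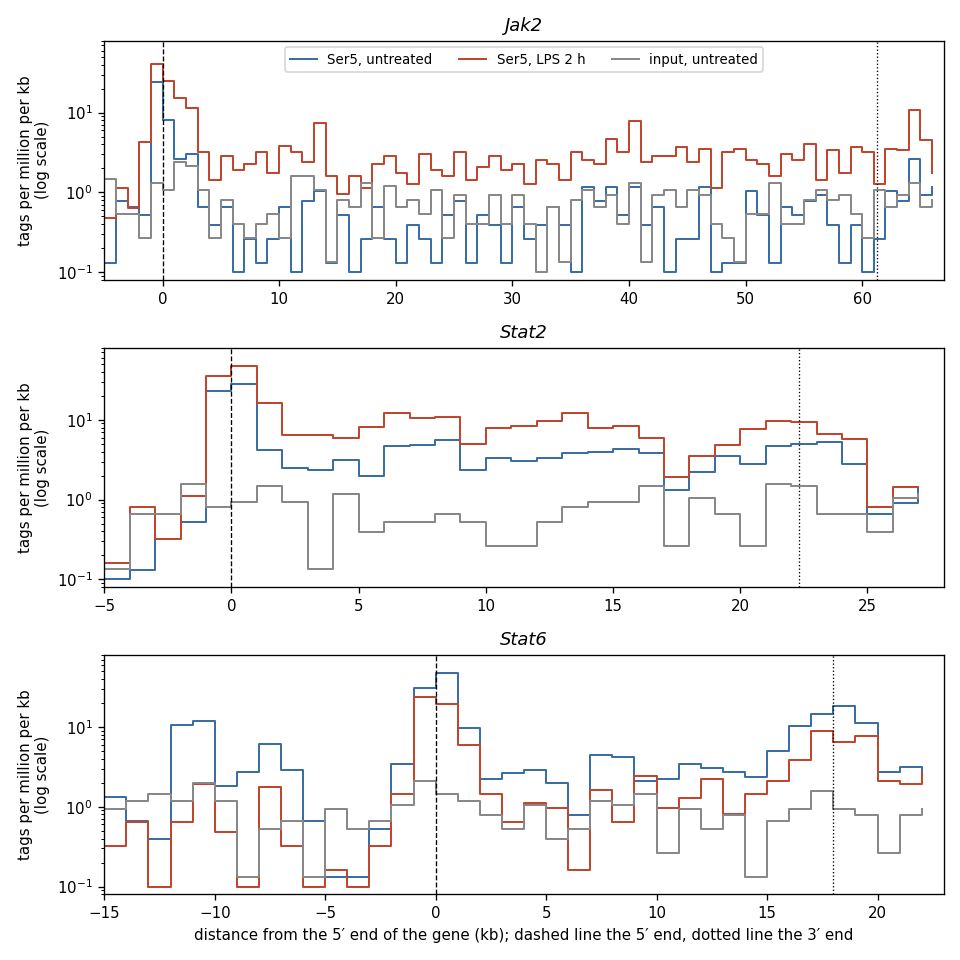
TPM per kb in bins of 1 kb (log axis, bins with no tag drawn at 0.1) are plotted against the distance from the 5′ end of Jak2, Stat2 and Stat6 for untreated Ser5 (blue), Ser5 after LPS (red) and input (grey), with the 3′ end as a dotted line. The red line lies above the blue one along most of Jak2 and Stat2 and below it along most of Stat6, where the untreated signal between 12 and 6 kb before the gene is also higher.

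Jak1, which encodes the kinase shared by most cytokine receptors of the family, spans 113 kb at chr4:100824972-100937887 (minus strand). It had 1005 tags over the gene in the untreated library, 928 after LPS and 684 in input, a ratio of 1.13 (1.03 to 1.23). The start window had a ratio of 1.34 (253 tags against 278, 1.13 to 1.59), and the rest of the gene stood at 1.07 (0.967 to 1.18). Jak1 and Jak2 had about the same start density before LPS (16.6 and 16.1 TPM per kb), and the start-to-rest ratio of Jak1 was 17.4 before and 21.8 after LPS, with overlapping intervals. An internal group of 2 Jak1 starts at chr4:100858030-100858055 had 12 tags untreated, 29 after LPS and 19 in input within 1 kb, with a peak only in the LPS list. Jak3, the kinase of receptors with the common γ chain, is short (14.3 kb, chr8:74200195-74214474, plus strand) and was the densest JAK gene over its body in untreated cells, at 3.19 TPM per kb against 1.17 for Jak1 and 0.652 for Jak2. After LPS this order turned, with Jak2 (3.36) above Jak3 (2.51) and Jak1 (1.31). The ratio of Jak3 was 0.787 (0.662 to 0.933, 347 tags against 224). The Insl3 record lies inside its 3′ part (1362 bp) and Gm9933, on the other strand, covers 379 bp at its start, so tags there cannot be assigned to either gene. Both libraries also had a separate peak past the TSS, at 1207 bp untreated and 1149 bp after LPS, inside the cluster of 6 annotated Jak3 starts.

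The Jak3 promoter, chr8:74200193-74200492 on the plus strand, is shown for its match to GGGA and TTTCC set 1 base apart, a form of the NF-κB site, which 0.452% of all coding promoters held on either strand. The capitals mark this match, which begins 11 bases before the TSS, and the first base of the transcript.
Jak3 promoter: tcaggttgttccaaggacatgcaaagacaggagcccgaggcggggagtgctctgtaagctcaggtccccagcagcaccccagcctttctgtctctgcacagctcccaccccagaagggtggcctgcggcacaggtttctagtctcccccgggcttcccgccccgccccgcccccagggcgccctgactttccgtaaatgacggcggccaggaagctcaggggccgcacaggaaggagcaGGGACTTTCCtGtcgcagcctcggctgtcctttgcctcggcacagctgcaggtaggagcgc
Ser5 at this start had a ratio of 0.784 (188 tags against 121, 0.619 to 0.991). All coding genes with enough tags in the start window had a median ratio of 0.835, with quartiles of 0.628 and 1.08. Whether the motif bears on the level of Jak3 was not tested.

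Stat2 encodes the STAT that joins IRF9 downstream of the receptors for type I interferons. It spans 22.3 kb on the plus strand at chr10:127707629-127729905 (ENSMUSG00000040033.8). The gene held 766 tags untreated (4.51 TPM per kb), 1376 after LPS (9.88 TPM per kb) and 126 in input (0.751 TPM per kb). It was thus above input in both conditions (6.01 and 13.2 times), and its ratio of 2.19 (2.00 to 2.39) was above that of 95.2% of coding genes. The ratio was smaller in the start window (389 tags against 521, 1.63, 1.43 to 1.87) than in the rest of the gene (552 against 1078, 2.38, 2.15 to 2.64). Past the first kb, the ratio was 3.07 in the first of 4 stretches of equal length and 2.15, 2.36 and 1.99 in the following ones. The start-to-rest ratio was 7.49 (6.56 to 8.55) before LPS and 5.14 (4.62 to 5.71) after it. The number of peaks hardly differed, 23 and 24, but those of the LPS library were longer and covered 79.0% of the gene against 37.4%. Among the 24 LPS peaks was chr10:127706455-127706983, before the TSS, with 5 tags untreated and 29 after LPS (a ratio of 7.07). It lies within Apof, a gene whose record stops 421 bp before Stat2 and which held 14 tags untreated, 37 after LPS and 17 in input.

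The Stat2 promoter, chr10:127707379-127707678 on the plus strand, is given for comparison with that of Jak2, as the other gene that was at least 2-fold higher. The capital marks the first base of the transcript.
Stat2 promoter: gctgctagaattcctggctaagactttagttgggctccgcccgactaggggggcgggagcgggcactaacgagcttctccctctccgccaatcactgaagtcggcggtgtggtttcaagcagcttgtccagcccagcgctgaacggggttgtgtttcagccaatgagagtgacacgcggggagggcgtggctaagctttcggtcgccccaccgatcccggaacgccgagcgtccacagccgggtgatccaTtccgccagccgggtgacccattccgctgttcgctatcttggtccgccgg
It was 63.0% G and C. It too held no match to the STAT palindromes of TTC and GAA set 3 or 4 bases apart, to GAAA repeated 2 bases apart (a core of the interferon-stimulated response element), to the NF-κB form given above, to GAGGAAGT (a PU.1 site) or to TATAAA, with both strands searched. These motifs were found in 7.87%, 6.47%, 3.82%, 0.452%, 3.04% and 13.5% of all coding promoters. At the starts used for the start windows of the 9 genes, 1 (Stat4) held the interferon element, 1 (Jak3) held the NF-κB form and 0 held any of the other 4. At the 5′ end of the gene record, where it is another start, Stat5a and Jak3 held the wider STAT palindrome and Jak3 the PU.1 site.

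Stat6, the STAT of the IL-4 and IL-13 receptors, spans 18.0 kb on the plus strand at chr10:127080042-127098013 (ENSMUSG00000002147.11). It held 930 tags untreated (6.79 TPM per kb), 347 after LPS (3.09 TPM per kb) and 116 in input (0.857 TPM per kb). The ratio was 0.455 (0.401 to 0.515), lower than in all but 8.42% of coding genes, and the gene stayed 3.61 times above input after LPS (2.91 to 4.49). The kb after the TSS was lower by more (360 tags against 121, a ratio of 0.410, 0.331 to 0.505) than the kb before it (235 against 148, a ratio of 0.768, 0.621 to 0.947). Past the first kb the 4 stretches of equal length had ratios of 0.503, 0.415, 0.516 and 0.486. The start-to-rest ratio was 8.85 before and 10.1 after LPS (intervals 7.88 to 9.95 and 8.43 to 12.1). The untreated peaks numbered 10 and covered 39.0% of the gene, and the LPS peaks numbered 5 and covered 14.8%. The last stretch was denser than the middle in both libraries (7.92 TPM per kb untreated and 3.85 after LPS), and the peak there runs on into Nab2, a gene on the other strand whose record overlaps the end of Stat6 by 40 bp (871 tags against 503, a ratio of 0.704).

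Upstream of Stat6 the untreated library had 5 extragenic peaks between 6.18 and 11.2 kb from the gene that were absent from the LPS list. The strongest, chr10:127068148-127069484, held 153 tags untreated, 16 after LPS and 18 in input. Its ratio was 0.127 (0.0711 to 0.214). The other 4 had 18, 14, 43 and 12 tags untreated and 0, 0, 11 and 1 after LPS. These peaks lie between Stat6 and Lrp1, a gene on the minus strand whose TSS is 10.6 kb from the strongest peak, on its other side, so position does not assign them to either gene. The 300 bases about the midpoint of the strongest peak, chr10:127068666-127068965 on the plus strand, are shown because it had the most tags of the extragenic peaks within 20 kb upstream of the 9 genes, with matches to the STAT palindrome of the wider spacing and to TATAAA in capitals.
Stat6 upstream untreated peak: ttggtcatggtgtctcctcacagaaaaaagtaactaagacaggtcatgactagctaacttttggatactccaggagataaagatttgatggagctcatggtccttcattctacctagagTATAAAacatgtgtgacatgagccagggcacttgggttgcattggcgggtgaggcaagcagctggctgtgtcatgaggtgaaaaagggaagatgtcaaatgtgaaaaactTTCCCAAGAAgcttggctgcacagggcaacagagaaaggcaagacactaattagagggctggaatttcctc
These motifs were found in 6.13% and 8.43% of the 53465 untreated peaks read in the same way. The sequence at the Stat6 start itself, chr10:127079792-127080091 on the plus strand, held none of the motifs and was 57.3% G and C.
Stat6 promoter: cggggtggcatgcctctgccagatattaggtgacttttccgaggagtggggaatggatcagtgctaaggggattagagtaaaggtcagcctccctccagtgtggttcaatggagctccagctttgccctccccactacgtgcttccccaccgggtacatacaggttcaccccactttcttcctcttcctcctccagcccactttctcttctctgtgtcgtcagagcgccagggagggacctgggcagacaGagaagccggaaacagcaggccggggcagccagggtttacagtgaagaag

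Stat5a and Stat5b encode the closely related STATs of the GM-CSF receptor and lie head to head on chromosome 11, with Stat3 beyond the end of Stat5a. Stat5a (25.8 kb, chr11:100720665-100746483, plus strand) held 344 tags untreated, 216 after LPS and 93 in input, a ratio of 0.765 (0.642 to 0.910). Stat5b (chr11:100642045-100712038, minus strand) held 772, 545 and 405 tags, a ratio of 0.860 (0.770 to 0.961). Both ratios lie within the middle quartiles of all coding genes. Stat5b had 2 separate starts with a Ser5 peak in both libraries. The outer one, at the 5′ end of the record, had 161 tags untreated, 112 after LPS and 9 in input (a ratio of 0.848, 0.660 to 1.09). The inner one, 28196 bp into the gene and the start of the transcript with the longest coding sequence, had 131, 72 and 21 tags (a ratio of 0.670, 0.495 to 0.900), close to the Stat5a start with 147, 84 and 21 tags (0.696, 0.526 to 0.917). In the kb before the TSS the ratio was 0.633 at Stat5a (104 tags against 54, 0.447 to 0.887) and 0.520 at the inner Stat5b start (82 against 35, 0.340 to 0.782). In the kb after it the ratios were 0.850 (0.515 to 1.39) and 0.920 (0.584 to 1.44), with intervals that overlapped those before the TSS.

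The sequences in front of these 2 starts resemble each other. The best local alignment of the kb on each side had 102 columns, of which 82 were identical (80.4%). The stretch of it from 80 bases before the Stat5a TSS, chr11:100721718-100721796 on the plus strand, and its counterpart from 114 bases before the inner Stat5b TSS, chr11:100683877-100683956 on the minus strand, are shown in the direction of transcription, with the differing bases in capitals.
Stat5a: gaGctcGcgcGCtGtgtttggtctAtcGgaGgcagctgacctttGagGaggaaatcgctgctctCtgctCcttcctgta
Stat5b, inner start: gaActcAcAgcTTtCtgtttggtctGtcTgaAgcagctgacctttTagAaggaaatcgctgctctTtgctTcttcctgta
In this stretch 67 of 80 columns were identical. Only tags with a unique match were kept by the authors, and 0.700% and 3.70% of the 30-base words in the start windows of Stat5a and Stat5b occurred at more than 1 place in the genome. Leaving those positions out gave a ratio of 0.675 at the inner Stat5b start. The outer Stat5b promoter was 74.7% G and C and the inner one 49.7%.

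**Figure D5:**
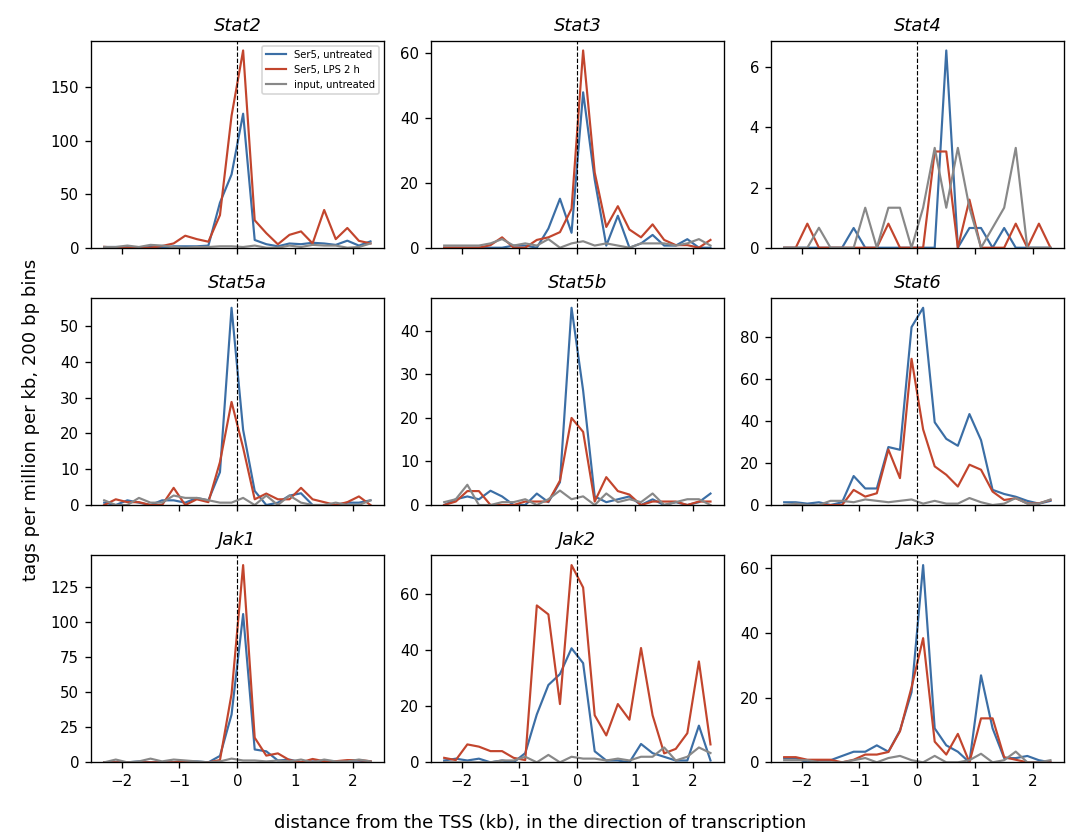
TPM per kb in bins of 200 bp are plotted against the distance from the TSS in kb, in the direction of transcription, for the 9 genes in untreated Ser5 (blue), Ser5 after LPS (red) and input (grey), each panel with its own linear axis from 0. Most genes show a single narrow maximum at the TSS, and Stat6 shows a broad one (untreated 27.6 at -500 bp and 43.3 at 900 bp). The maximum of Jak2 reaches upstream before LPS too (27.6 at -500 bp). At 500 bp past the TSS Jak2 had 0.656 untreated and 9.60 after LPS. Stat4 shows no signal apart from input (at most 11 Ser5 tags in the whole start window).

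Stat3, the STAT of IL-6 and IL-10, spans 54.4 kb at chr11:100746412-100800854 (minus strand). It held 653 tags untreated, 690 after LPS and 310 in input, a ratio of 1.29 (1.16 to 1.44), above that of 82.2% of coding genes and short of 2-fold. The start window (161 tags against 164, a ratio of 1.24, 0.993 to 1.55) and the rest (532 against 554, a ratio of 1.27, 1.12 to 1.43) had almost the same ratio. The kb after the TSS was higher after LPS (121 against 136, 1.37, 1.06 to 1.76) and the kb before it had a ratio of 0.853 (40 against 28, 0.507 to 1.42), with an interval that overlapped it. LPS peaks without an untreated counterpart included one at chr11:100792929-100793248, in an intron 7766 bp from the start, with 9 tags untreated, 23 after LPS and 2 in input. The records of Stat3 and Stat5a overlap by 72 bp at their 3′ ends, so that peaks there belong to the flank of one and the last exon of the other, and tags carry no sign of the strand transcribed.

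Stat4, the STAT of the IL-12 receptor best known in T cells and natural killer cells, spans 120 kb at chr1:52043992-52164032 (plus strand). It held 168 tags untreated, 147 after LPS and 613 in input, or 0.271 (0.227 to 0.322) and 0.289 (0.240 to 0.347) times input. Its start window had 11 tags in each Ser5 library and 22 in input. A Ser5 signal at Stat4 was not detectable at this depth in either condition. The whole-gene ratio of 1.07 (0.849 to 1.34) rests on tags below the level of input in both libraries. In both Ser5 libraries a large share of the tags lay in peaks, and 49.9% of untreated and 46.3% of LPS tags lay outside the peaks of both lists, against 95.5% of input tags. Scaled to those tags, Stat4 stood at 0.519 times input untreated and 0.595 times after LPS.

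The other genes of the pathway were counted in 4 lists by the same rule over the whole gene. Of 34 receptor chains, 1 was at least 2-fold higher and 4 lower, with a median ratio of 0.976. The higher one was Il2rb, at 10 tags against 24 and below its input of 46. The lower ones were Il7r, the IL-7 receptor chain (277 tags against 62, a ratio of 0.273), Il6ra, the IL-6 receptor chain (551 against 159, 0.352), Il6st, the gp130 chain that IL-6 shares with related cytokines (300 against 112, 0.455), and Epor (16 against 2, 0.152, with 20 in input). Il2rb, Il6st and Epor were named after their values were seen. The highest ratios among receptors with at least 50 tags were those of Il13ra1 (1.68) and of Il2rg, the common γ chain (1.58). Il13ra1 was below input in both libraries, at 69 and 95 tags against 275.

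Of 19 inhibitors, 6 were at least 2-fold higher and 1 lower, with a median ratio of 1.18. Socs3, which blocks receptors of the gp130 type, had 244 tags untreated and 2129 after LPS (a ratio of 10.6, 9.31 to 12.2), and Cish, a SOCS protein that STAT5 induces, 16 and 116 (8.84, 5.22 to 16.0). Untreated Cish was at 0.311 TPM per kb against 0.432 in input (22 tags). The lowest were Sh2b3, an adaptor that restrains JAK2, with 1531 tags and 546 (0.435, 0.393 to 0.480), and Pias3, an inhibitor of STAT3 (315 against 175, 0.677). Of 8 partners 1 was higher and 0 were lower. It was Nmi, a protein that binds STATs (106 tags against 193, a ratio of 2.22), followed by Irf9, the partner of STAT2 (735 against 989, 1.64), while Ep300 (0.921) and Sh2b1 (0.666) were lowest. Of 12 known targets 6 were higher and 1 lower, with a median ratio of 1.96. Cxcl10, a chemokine gene that interferons induce, went from 55 to 4019 tags (a ratio of 89.1, 68.3 to 118) and Cxcl9 from 8 to 57 (8.68). Untreated Cxcl9 was at 0.156 TPM per kb against 0.610 in input (31 tags). Irf8, a factor of the myeloid lineage, went from 1428 to 481 (0.411) and Myc from 710 to 393 (0.675). The lists were drawn up with earlier results of these data known, so the counts stand as a description beside the 5.83% and 11.3% of all coding genes.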

How the data were processed

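The data were Ser5-phosphorylated Pol_II ChIP-Seq tags of untreated and LPS-treated bone marrow-derived macrophages and input DNA of untreated cells, 1 library each, grouped by the sample labels. Per the labels and the study's methods, the authors cut the 3′ part off the reads, mapped the remainder onto mm9 by Bowtie with few mismatches allowed, retained those with a unique place, and called peaks per library against input with MACS. The largest p in the peak lists was 1e-05. Tool versions, and the alignment settings of the input, are not given in the sources used here. In the deposited files each tag has its position and strand, duplicates included, and the deposited peak lists give a score, minus 10 times log10 of the MACS p-value, which was used only to pick the stricter peaks of p at most 1e-10.

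Tags were counted by their 5′ end over the whole GENCODE M1 gene record and within 1 kb of the TSS of the coding transcript with the longest coding sequence, and divided by the library's tags on chromosomes 1 to 19 and X. The rest of a gene leaves out the windows at its TSS and its 5′ end. Peaks count where they overlap a window by at least 1 bp. With 1 library per condition no test was made. A gene counted as higher or lower at 2-fold or more, given at least 10 tags over both Ser5 libraries, with 0 tags set to 0.5 for this rule. Intervals are 95% exact intervals, Poisson for densities and conditional on the sum for ratios. They cover counting error only and treat each tag as independent. Reads without molecular identifiers are not independent molecules, so the intervals may be too narrow even for counting error. The reference sequence is that of mm9, so sequences were read from it by coordinate. The newer symbol Spi1 was matched to the older Sfpi1 of this annotation.

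Named genes were the 9 genes themselves, coding genes within 1 kb of them, the 2 highest and 2 lowest ratios of each pathway list among genes with at least 50 tags, and the marker and label check genes. The genes, lists, measures and alternatives were chosen with earlier results of these data known. The alternatives were 1 tag per position and strand, a downstream move of tags by 75 bp, scaling to tags outside the peaks of both libraries, positions whose 30-base word occurs once in the genome, other windows, other thresholds and other peak definitions. The computations used Python 3.11.15, numpy 2.4.6, scipy 1.17.1 and matplotlib 3.10.9. The counting of 30-base words was tried on a simulated sequence. The intervals and the 2-fold rule were tried on simulated Poisson counts, the model that the intervals assume. That trial cannot show how they behave with duplicate tags or with spread between cultures.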

Additional observations from a re-analysis of the deposited data

How the results depend on the processing

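No paired analysis was possible because each condition had 1 library. Over the whole gene the counts of 2 higher genes and 1 lower gene were the same under all 7 alternatives tried. In the start window the count of 1 higher gene, Jak2, became 0 with 1 tag per position and strand (where its ratio was 1.92 instead of 2.03), 0 with a window of 500 bp on each side (1.52), and 2 at a threshold of 1.5-fold, which also gave 1 lower gene instead of 0. The ratio in the smaller window was the only 1 of 99 recomputed LPS to untreated ratios that left the interval given in the report, and 0 of the 99 changed sides of 1. The 8 genes with a start peak remained 8 in each library with peaks of p at most 1e-10, with an overlap of most of the peak, and at any annotated TSS. Scaling to the tags outside the peaks moved the log2 ratio of every gene by 0.11, which gave 5.56 for Jak2, 2.36 for Stat2 and 0.490 for Stat6 over the whole gene, and the share of higher genes among all coding genes past 2-fold went from 34.1% to 43.3%. Comparisons with input changed more under this scaling: 33 of 36 left their interval, against 0 of 36 with 1 tag per position and strand and 0 of 36 with tags moved, and 2 changed sides of 1, those of untreated Jak2 over the whole gene (1.67 instead of 0.872) and of the Stat4 start after LPS (1.24 instead of 0.603). Under 4 alternatives added after seeing the data, the start-to-rest ratio of Jak2 was 29.6 to 47.5 untreated and 10.1 to 12.2 after LPS. Over all the genes, 20 of the 72 start-to-rest ratios recomputed in this way left their interval, and 0 fell below 1. With 1 tag per position and strand, that of Stat2 was 5.79 untreated (instead of 7.49) and 3.93 after LPS (instead of 5.14). Of the pathway counts recomputed over the whole gene under 2 scalings, 1 moved by more than 1.5 times. It was that of higher receptor chains (2 instead of 1 with 1 tag per position and strand). The spread between cultures is not known for any value, and few tags lie behind some of them: the 3 and 19 tags of the nearer Jak2 upstream peak gave an interval of 2.27 to 40.7 for its ratio, and the 11 and 11 tags at the Stat4 start leave its level undecided against input.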
